A study of Drosophila melanogaster with 2 samples.

Results

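The genes for translation initiation, elongation and release factors were examined for binding of the product of CG4282 at their promoters. They were the protein-coding genes whose Ensembl symbol starts with eIF, eEF or eRF, and there were 54 of them among 13945 protein-coding genes on the 6 arms 2L, 2R, 3L, 3R, 4 and X. Of these, 44 were initiation factor genes and 10 were elongation or release factor genes. Binding had been mapped by chromatin immunoprecipitation and sequencing (ChIP-seq) with an anti-GFP antibody in whole Drosophila melanogaster embryos collected over the interval from 0 to 24 h and pooled over both sexes. The embryos came from a stable transgenic line in which GFP was fused to the C-terminus of CG4282. They formed a single group of 2 libraries, biological replicates 3 and 4 by their labels. Each library drew on all tissues and on a range of embryonic stages, so a value is an average over cells that may differ. No untagged or input library was analysed here, so signal that does not depend on the tag was not measured at these genes. The labels do not say which promoter drives the transgene.

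Protein synthesis begins when initiator methionyl-tRNA, carried by the GTPase eIF2, joins the small ribosomal subunit with eIF1, eIF1A, eIF3 and eIF5. The cap-binding protein eIF4E, the scaffold eIF4G and the helicase eIF4A bring the mRNA, and eIF2B reloads eIF2 with GTP after each round. Elongation factors of the eEF1 and eEF2 classes then move the ribosome along the message, and eRF1 and eRF3 release the finished chain. In Drosophila, genes for such housekeeping proteins are often driven by promoters that carry the DNA replication-related element (DRE), bound by the factor DREF and, through an overlapping core, by the insulator protein BEAF-32.

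A gene was called bound when the summit of a peak in the authors' optimal list lay within 500 bp of one of its annotated transcript starts. By this rule 13 of the 54 translation factor genes were bound, a share of 24.1% with a 95% Wilson interval of 14.6% to 36.9%, against 11.4% of all protein-coding genes. The 13 were eIF6, eIF3c, eEF1gamma, eEF5, eIF1, eRF3, eIF3h, eEF2, eIF3a, eIF2A, eIF3f1, eIF4A and eIF2alpha, in falling order of signal. The optimal list held 1985 peaks, which were exactly the strongest peaks of a longer list of 30000 called on both replicates together and named the pooled list here. A pooled summit of any strength lay at 41 of the 54 genes (75.9%), against 51.6% of protein-coding genes. Among the genes with a pooled summit, 13 of 41 translation factor genes (31.7%) were bound, against 22.2% of protein-coding genes. Of the initiation factor genes 9 of 44 (20.5%, interval 11.2% to 34.5%) were bound, and of the elongation and release factor genes 4 of 10 (40%, interval 16.8% to 68.7%). These intervals overlap and the difference was not tested. All intervals cover counting error over genes only.

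**Figure D1:**
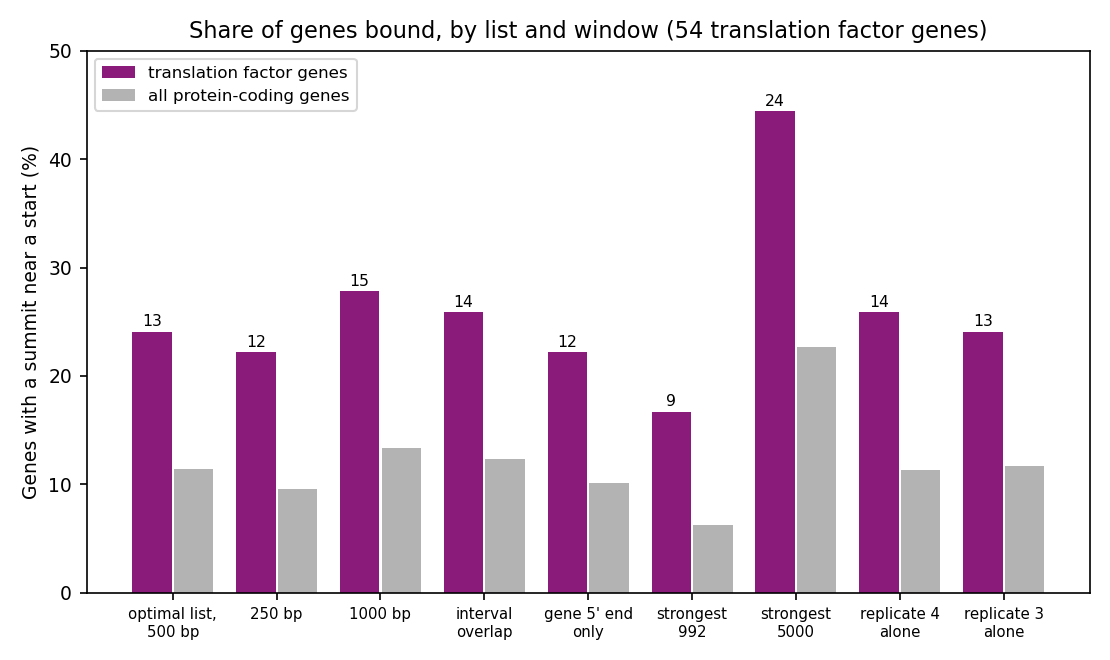
Share of genes with a summit near a start (%), for the 54 translation factor genes (dark bars, with the count of genes above each) and all protein-coding genes (grey bars), with the optimal list at 500 bp and with other windows, list lengths and single replicates. With the optimal list the shares were 24.1% and 11.4%, and the dark bar was the higher in each of the 9 settings drawn.

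Of the 13 bound summits, 6 had a DRE, spelled TATCGATA and searched on both strands, within 50 bp of the summit on either side. These were the summits of eEF1gamma, eIF1, eIF2A, eIF2alpha, eIF3a and eIF3f1. The same word was in 6.49% of the 1140 optimal summits that lie at protein-coding starts. The DRE and its flanks are shown for those of the 6 genes in which the flanks lie outside annotated exons, since the comparison of bound summits turns on this word. Each sequence runs 5′ to 3′ on the strand of its gene, with the DRE in capitals, and was read from the RefSeq copy of the dm6 genome.
eEF1gamma, chr3R:29220091-29220171, plus strand: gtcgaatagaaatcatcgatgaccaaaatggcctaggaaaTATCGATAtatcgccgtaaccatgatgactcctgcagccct
eIF1, chr3L:3223005-3223092, plus strand: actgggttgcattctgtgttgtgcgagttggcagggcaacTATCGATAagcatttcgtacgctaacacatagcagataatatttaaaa
eIF2alpha, chrX:16446994-16447046, minus strand: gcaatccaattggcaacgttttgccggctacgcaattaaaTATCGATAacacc
eIF3a, chr3R:4433896-4433964, minus strand: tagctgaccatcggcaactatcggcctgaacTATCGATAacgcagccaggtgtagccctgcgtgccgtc
eIF3f1, chr3R:4714183-4714230, minus strand: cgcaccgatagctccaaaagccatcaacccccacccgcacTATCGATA

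The DRE ended 34 bp upstream of the start of eEF1gamma, 31 bp upstream of that of eIF3a, 6 bp upstream of that of eIF2alpha and 1 bp upstream of that of eIF3f1. At eIF2A it lay 82 bp upstream of the start nearest the summit, inside an exon of a longer transcript. At eIF1 it lay 289 bp upstream, on the side of the divergent gene RpL28. The 8 bases of a DRE read the same on both strands, so every DRE also holds the BEAF-32 core CGATA on each strand. The core was found at those 6 summits and at that of eEF5, 7 of 13 in all, against 27.5% of the optimal summits at protein-coding starts. The pentamer GAGAG, bound by the GAGA factor, occurred at 1 of the 13 summits, that of eIF3c, against 11.9%. No match lay within 50 bp of any of the 13 summits for core promoter Motif 1 (1.32% of optimal summits at protein-coding starts), Motif 6 (1.14%), Motif 7 (7.19%), the TATA word TATAAA (11.7%), the E-box CACGTG (1.67%) or CACAGTGG (4.39%), a word chosen for the peaks of the whole data set. These counts moved with the window. The DRE was at 2 of 13 summits within 25 bp, against 2.81%, and at 7 of 13 within 100 bp, against 9.74%, where eIF6 was added. The BEAF-32 core was at 3 of 13 within 25 bp, against 15.9%, and at 11 of 13 within 100 bp, against 41.8%. Within 100 bp the TATA word was at 3 of 13 (against 24.7%), GAGAG at 2 (against 25.2%), and Motif 1 (against 2.72%), Motif 6 (against 1.49%) and CACAGTGG (against 6.58%) at 1 each.

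The DRE count also depended on the replicate. Of the 6 genes, eEF1gamma and eIF1 alone were within the first 1985 peaks of both replicates, so that the DRE was at 2 of the 8 members with that property, against 5.60% of the promoter summits of such genes. In this comparison, added after the data had been seen, it was at 4 of 13 members in replicate 3 alone (eEF1gamma, eIF1, eIF2A and eRF1, against 6.11%). In replicate 4 alone it was at 5 of 14 (eEF1gamma, eIF1, eIF2alpha, eIF3a and eIF3f1, against 5.34%). The eIF1 match lay 289 bp upstream of the eIF1 start, and the optimal summit there was 48 bp from the start of RpL28. The DRE there cannot be assigned to eIF1 rather than RpL28.

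**Figure D2:**
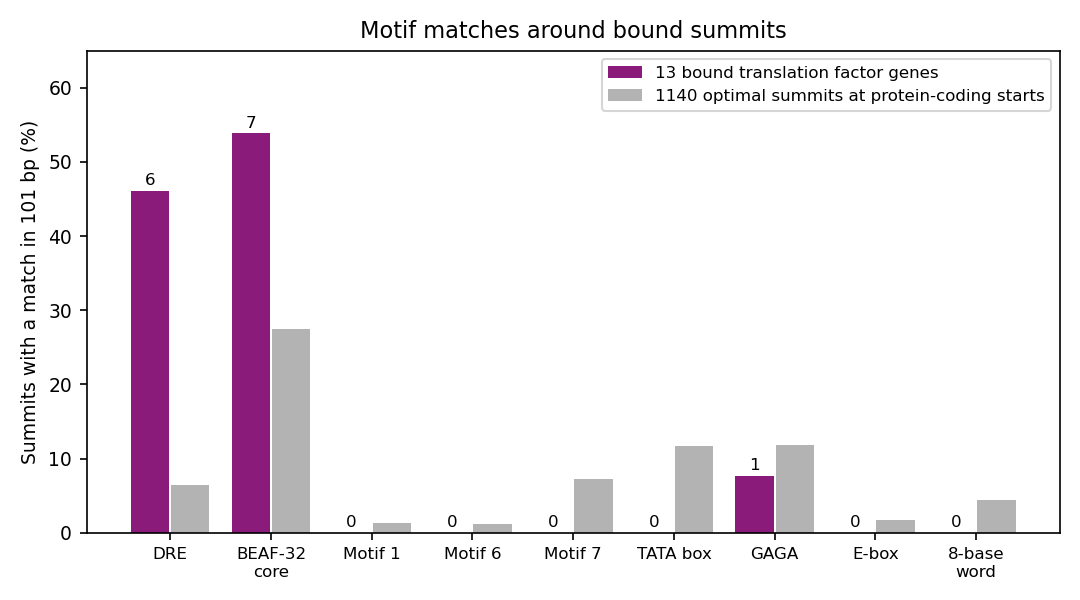
Share of summits with a motif match within 50 bp of the summit (%), for the 13 bound translation factor genes (dark bars, with the count of genes above each) and for the 1140 optimal summits at protein-coding starts (grey bars). The DRE was at 6 of 13 summits against 6.49%, and the BEAF-32 core at 7 of 13 against 27.5%.

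The DRE was then counted in the promoter window from 250 bp upstream to 50 bp downstream of any start, a window added after the summits had been examined. There it was present at 16 of the 54 translation factor genes (29.6%), against 10.2% of protein-coding genes. It was present at 8 of the 13 bound members (61.5%), against 17.3% of the 1595 bound protein-coding genes. Those 8 were eEF1gamma, eIF2A, eIF2alpha, eIF3a, eIF3c, eIF3f1, eIF4A and eIF6. The 41 members that were not bound had 8 such promoters (19.5%), against 9.24% of unbound protein-coding genes, and these belonged to eEF1delta, eIF1A, eIF2Bbeta, eIF2gamma, eIF3l, eIF4B, eIF4E6 and eRF1. Of the 16 members with a DRE in the promoter 8 were bound (50%), against 19.5% of all 1417 protein-coding genes with one. A gene with more annotated starts had more sequence searched, and these shares were not matched for the number of starts. A further promoter feature of many translation genes is the TCT initiator, whose core CTTT was looked for on the coding strand within 5 bp of the start nearest the summit. It was there at 3 of the 13 bound members (23.1%), eEF2, eEF5 and eIF3f1, against 7.21% of bound protein-coding genes. The word began 4 bp downstream of the start at eEF2 and eIF3f1 and 5 bp downstream at eEF5. None of these matches began at the annotated start itself, so they do not show a TCT initiator there. Around any start, again without matching the number of starts, it was at 7 of the 54 members (13.0%), against 8.07%.

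The signal of a peak is the authors' own value and has a different scale in each list, with a median of 9.57 in the list of replicate 3, 21.0 in that of replicate 4 and 28.1 in the pooled list. These lists held 30000 peaks each, so ranks could be set side by side. Each gene is given by the strongest of its promoter summits in each list, so the summits compared need not lie at the same place. Among the 1985 strongest peaks of replicate 3 there were 13 translation factor genes (24.1%, against 11.7% of protein-coding genes). Among those of replicate 4 there were 14 (25.9%, against 11.3%). The genes within that rank in both replicates numbered 8 (14.8%, against 8.06%) and were eEF1gamma, eEF2, eEF5, eIF1, eIF3c, eIF3h, eIF6 and eRF3. In replicate 3 alone there were 5 (9.26%, against 3.60%), and in replicate 4 alone 6 (11.1%, against 3.24%).

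**Figure D3:**
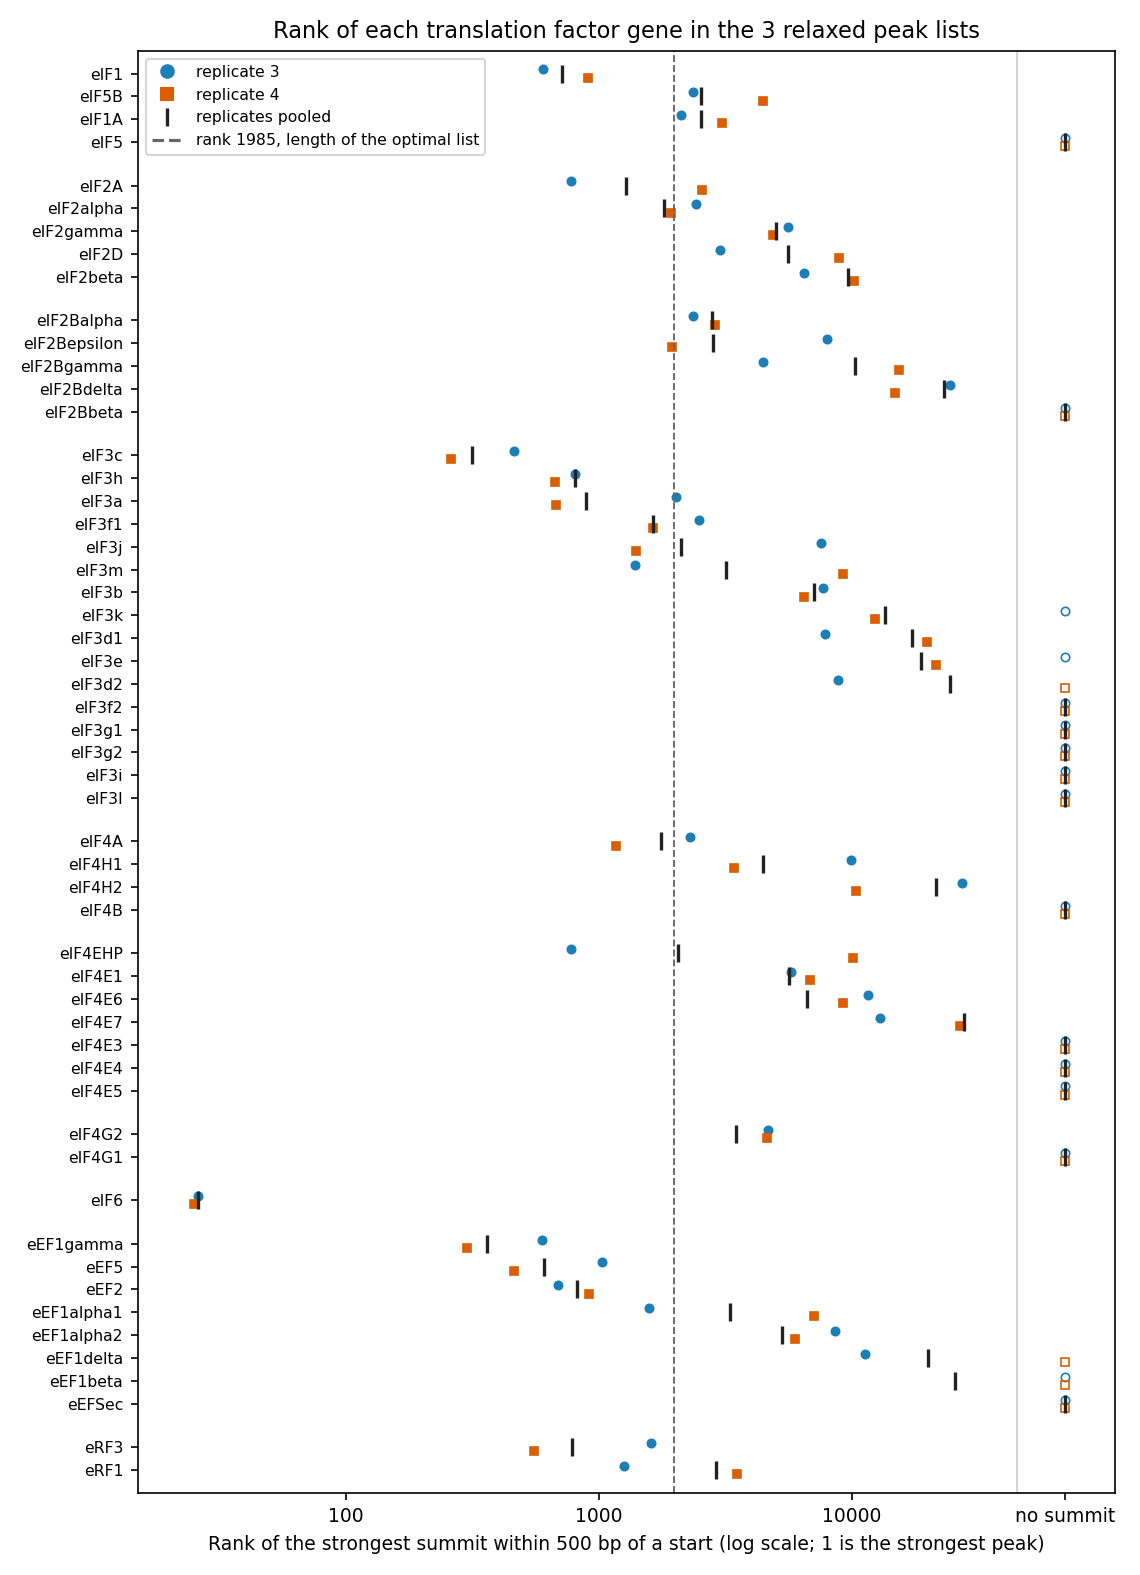
Rank of the strongest promoter summit of each of the 54 genes in the lists of replicate 3 (circles), replicate 4 (squares) and both pooled (bars), on a log scale with rank 1 the strongest, grouped by role. Open symbols at the right stand for genes with no summit within 500 bp of a start, and the dashed line marks rank 1985, which 8 genes passed in both replicates.

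The strongest signal of the family was that of eIF6, grouped by itself here as a factor that keeps the large subunit from joining the small one. eIF6 binds the large subunit and is needed for its maturation. Its summit had a signal of 458 in the pooled list, rank 26, of 200.7 in replicate 3, rank 26, and of 259 in replicate 4, rank 25. The peak lay at 2R 23850294 to 23850510 (dm6), with its summit 84 bp upstream of the eIF6 start. The non-coding antisense gene asRNA:CR45928 starts 55 bp from the same summit on the other strand. The next member, eIF3c, ranked 316 in the pooled list, so no other translation factor gene came near eIF6 in either replicate.

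eIF3 is the largest initiation factor and holds the other factors on the small subunit. Of its 16 genes, paralogs included, 4 were bound and 11 had a pooled summit, beside 11.4% and 51.6% of all protein-coding genes. eIF3c (2R, peak 17665441 to 17665840) had a pooled signal of 158, rank 316, with 59.0 and rank 461 in replicate 3 and 99.4 and rank 260 in replicate 4. eIF3h (2L, 5052536 to 5052935) had 103, rank 808, with 44.7 and rank 805 in replicate 3 and 68.0 and rank 672 in replicate 4. Its strongest replicate 3 summit lay 278 bp downstream of the nearest start, away from the pooled (44 bp) and replicate 4 (46 bp) summits. These 2 subunit genes were within the first 1985 peaks in both replicates.

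eIF3a, whose product is a large core subunit of the complex, had a pooled signal of 98.7, rank 893 (3R, 4433747 to 4434146), with 26.8 and rank 2021 in replicate 3 and 67.5 and rank 678 in replicate 4. eIF3f1 had 73.4, rank 1637 (3R, 4713948 to 4714347), with 24.0 and rank 2484 in replicate 3 and 46.6 and rank 1641 in replicate 4. Both were outside the first 1985 peaks of replicate 3. eIF3j, a loosely attached subunit, was not bound: it had a pooled signal of 64.8 at rank 2108, with 13.2 and rank 7573 in replicate 3 against 49.9 and rank 1402 in replicate 4. eIF3m showed the opposite order, with a pooled signal of 52.8 at rank 3200, 33.2 and rank 1388 in replicate 3, and 25.1 and rank 9271 in replicate 4. The pooled signals of the other 5 eIF3 genes with a summit, eIF3b, eIF3k, eIF3d1, eIF3e and eIF3d2, ran from 37.8 down to 22.5. eIF3f2, eIF3g1, eIF3g2, eIF3i and eIF3l had no summit within 500 bp of a start in the pooled list. Subunits of this complex thus spanned the range from rank 316 to no summit at all.

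Delivery of the initiator tRNA is the work of the 3 eIF2 subunits, and eIF2A and eIF2D are alternative tRNA-binding factors. All 5 genes had a pooled summit and 2 were bound, beside the same 51.6% and 11.4%. eIF2A (3L, 21824719 to 21825118) had a pooled signal of 83.3, rank 1281, with 45.7 and rank 775 in replicate 3 and 39.2 and rank 2552 in replicate 4. eIF2alpha, the subunit phosphorylated under stress, had 69.6, rank 1817 (X, 16446771 to 16447170), with 24.3 and rank 2418 in replicate 3 and 43.6 and rank 1939 in replicate 4. Each was thus within the first 1985 peaks in a different replicate. The signals of the other subunits were 43.4 for eIF2gamma and 33.4 for eIF2beta in the pooled list, and that of eIF2D was 41.4.

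None of the 5 genes for eIF2B, the exchange factor that recharges eIF2, was bound, and 4 had a pooled summit. With 11.4% of all protein-coding genes bound and 51.6% with a pooled summit, counts in so small a group lie near the background. eIF2Balpha had a pooled signal of 56.3, rank 2797, with 24.6 and rank 2367 in replicate 3 and 37.5 and rank 2884 in replicate 4. eIF2Bepsilon, the catalytic subunit, had 55.9, rank 2829, with 12.9 and rank 7967 in replicate 3 and 43.4 and rank 1953 in replicate 4. eIF2Bgamma and eIF2Bdelta had pooled signals of 32.5 and 23.1. eIF2Bbeta had no summit within 500 bp in any list, yet the peak of rank 3 in the optimal list, with a signal of 822, had its summit 684 bp upstream of its start. That peak (X, 2703719 to 2704048) covers starts of the divergent neighbour Ugalt, which encodes a nucleotide sugar transporter and was singled out after its values were seen.

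Start codon selection and joining of the subunits involve eIF1, eIF1A, eIF5 and eIF5B. Of these 4 genes only eIF1 was bound, beside 11.4% of all protein-coding genes. eIF1 had a pooled signal of 111, rank 717 (3L, 3222808 to 3223207), with 52.1 and rank 600 in replicate 3 and 60.0 and rank 906 in replicate 4. Its summit was the farthest of the 13, 333 bp upstream of the eIF1 start and 48 bp from the start of RpL28, a ribosomal protein gene on the other strand, with snoRNA:Or-CD11a starting 467 bp away. With a window of 250 bp eIF1 was left with a pooled signal of 20.5, near the lowest of the list, 20.4. eIF5B, the GTPase of subunit joining, had a pooled signal of 59.2 at rank 2532, with 24.7 and rank 2357 in replicate 3 and 32.1 and rank 4479 in replicate 4. eIF1A had 59.2 at rank 2544, with 26.2 and rank 2108 in replicate 3 and 36.5 and rank 3085 in replicate 4. Both were outside the optimal list, and eIF5, which activates the GTPase of eIF2, had no pooled summit.

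Among the mRNA-recruiting factors only the helicase gene eIF4A was bound, 1 of 4 helicase and cofactor genes, beside 11.4% of all protein-coding genes. It had a pooled signal of 70.4, rank 1770 (2L, 5982171 to 5982570), with 25.1 and rank 2286 in replicate 3 and 53.9 and rank 1165 in replicate 4. The summit lay 8 bp downstream of an internal start, and with only the 5′ end of the gene model counted its pooled signal was 26.3. Its cofactor genes eIF4H1 and eIF4H2 had pooled signals of 45.5 and 23.9, while eIF4B had none. eIF4B lies in the proximal part of arm 3L, 4979367 bp from the nearest optimal summit. eIF4H1 is a neighbour of eIF2alpha on X, and the bound summit of eIF2alpha lay 1694 bp upstream of its start.

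None of the 7 cap-binding genes and neither eIF4G gene was bound, a count near the 11.4% of all protein-coding genes in groups of this size. The cap-binding gene nearest the list was eIF4EHP, which encodes a competitor of eIF4E that represses translation of caudal in the early embryo. It had the highest signal of all members outside the optimal list, 65.5 at rank 2058, below the 66.9 of the weakest optimal peak and the 66.8 of the strongest peak left out. It ranked 773 with a signal of 45.7 in replicate 3 but 10162 with 24.3 in replicate 4. A stronger optimal peak, of signal 106 and rank 763, lay inside the eIF4EHP gene, 9744 bp downstream of its start (3R, 24099016 to 24099415). eIF4E1, the main cap-binding protein, had a pooled signal of 41.3 at rank 5649, and eIF4E6 and eIF4E7 had 38.7 and 21.2. eIF4E3, eIF4E4 and eIF4E5 had no pooled summit. Of the scaffold genes, eIF4G2 had 50.7 at rank 3497 and eIF4G1, on arm 4, had none.

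Of the 8 elongation factor genes 3 were bound, beside 11.4% of protein-coding genes, and all 3 were within the first 1985 peaks in both replicates. eEF1gamma, a subunit of the exchange complex of the tRNA-delivering GTPase, had a pooled signal of 148, rank 362 (3R, 29219930 to 29220329), with 52.3 and rank 595 in replicate 3 and 94.2 and rank 301 in replicate 4. eEF5, also known as eIF5A, which carries the modified residue hypusine, had 120.1, rank 608 (2R, 24057651 to 24058050), with 39.0 and rank 1032 in replicate 3 and 80.0 and rank 463 in replicate 4. eEF2, the translocase, had 102, rank 818 (2L, 21681882 to 21682281), with 48.5 and rank 687 in replicate 3 and 59.7 and rank 915 in replicate 4. The other exchange subunit genes were much lower, with pooled signals of 24.8 for eEF1delta and 22.1 for eEF1beta, so the genes of the exchange complex lay far apart in signal. The eEF1beta summit, of rank 25673, was at -498 bp from its start (negative is upstream), at the edge of the window. eEF1beta had no summit in either replicate list, and eEF1delta, of rank 19989, had none in that of replicate 4.

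The paralogs for the tRNA-delivering GTPase itself, eEF1alpha1 and eEF1alpha2, were not bound, with pooled signals of 52.0 at rank 3310 and 42.4 at rank 5315. eEF1alpha1 ranked 1586 with 30.9 in replicate 3 and 7131 with 27.4 in replicate 4. These ranks belong to different summits. The replicate 3 summit was at 456 bp from the nearest start, and the pooled and replicate 4 summits were at -62 bp (negative is upstream). An optimal peak of signal 67.5, rank 1937, had its summit 584 bp downstream of an eEF1alpha1 start (2R, 11892506 to 11892905), just beyond the window. How reads that match more than 1 paralog were placed is not given in the sources used here. eEFSec, the selenocysteine-specific factor, had no pooled summit.

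Both release factor genes had a pooled summit and 1 was bound, beside 51.6% and 11.4% of all protein-coding genes. eRF3, the GTPase of termination, was bound, with a pooled signal of 105, rank 782 (2L, 12434302 to 12434701), 30.7 and rank 1606 in replicate 3 and 73.9 and rank 553 in replicate 4. eRF1, which reads the stop codon, had 55.2 at rank 2920, with 34.9 and rank 1262 in replicate 3 and 35.0 and rank 3511 in replicate 4. Release factor eRF1 therefore stood outside the optimal list while being within the first 1985 peaks of replicate 3.

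Across the 36 members with a summit in both replicates, Spearman's rho between the signals was 0.66, and across the 5494 protein-coding genes with a summit in both it was also 0.66. This is a description across genes, which share the same libraries. The 8 members within the first 1985 peaks of both replicates were also the 8 with the highest pooled signal. From eIF3a down to eRF1 in pooled signal, no member was within that rank in both. Over all 54 members, the median rank in the replicate 3 list was 7658, against 26841 for all protein-coding genes. In replicate 4 it was 9092, while the median protein-coding gene had no summit there. The median optimal signal was 103 over the 13 bound members and 98.5 over all 1595 bound protein-coding genes, which include them, and the difference was not tested.

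**Figure D4:**
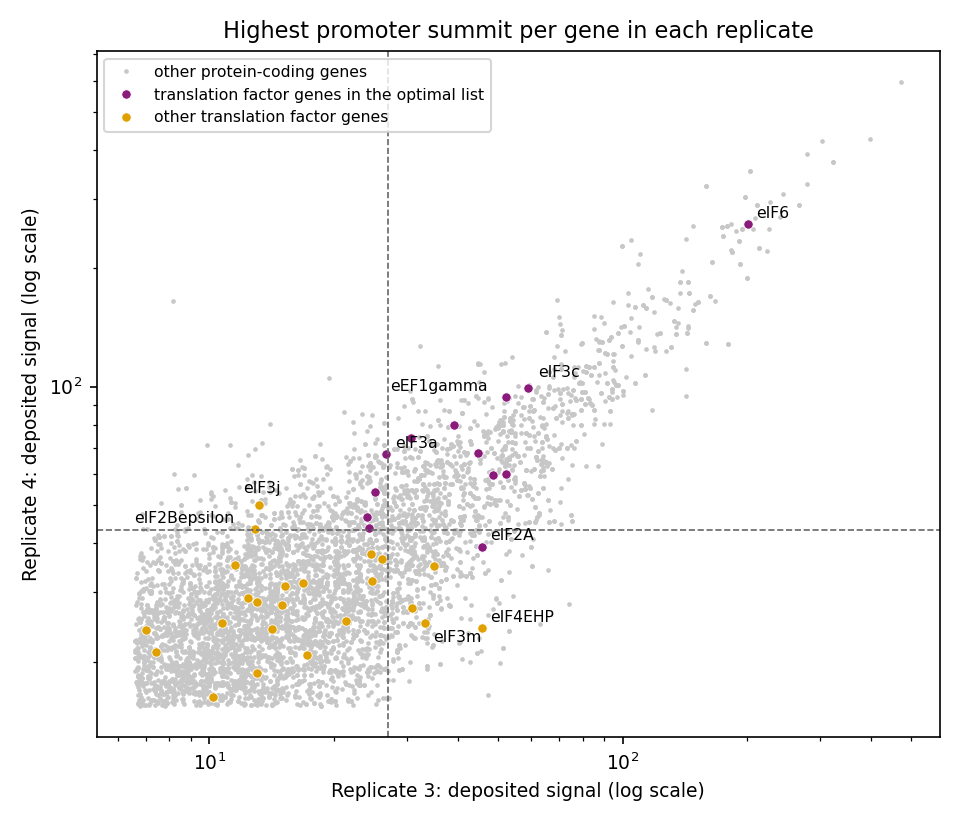
Deposited signal of the strongest promoter summit per gene in replicate 3 (horizontal) and replicate 4 (vertical), both on log scales, for genes with a summit in both lists. Dashed lines mark the signal of peak 1985 in each replicate, 27.1 and 43.2, and eIF6 stands apart from the other members at the upper right.

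The bound summits of the members lay close to the starts. The median distance was 42.0 bp, against 104 bp for all bound protein-coding genes, and 12 of 13 (92.3%) lay within 100 bp, against 48.7%. These background figures, and those for side and strand below, count a summit once for each gene it was assigned to. The 1595 bound protein-coding genes had 1140 different summits between them, while the 13 members had 13. The effect of this on the comparison was not tested. The summit was upstream of the nearest own start at 7 of 13 (53.8%), against 81.8%. With only the 5′ end of the gene model counted, it was upstream at 5 of 13. The side differed between replicates 3 and 4 at eIF3f1 (-43 and 35 bp) and eEF5 (22 and -2 bp). At the other bound members both replicates had the same side. At eRF3, eIF3h, eEF2, eIF3f1, eIF2alpha and eIF4A it lay downstream, by 50, 44, 34, 34, 22 and 8 bp in that order. Of the 13 summits, 5 (38.5%) had starts on both strands within 500 bp, against 55.9% of bound protein-coding genes. They were those of eIF6 and eIF1, given above, of eRF3 with SC35, a splicing factor gene, starting 163 bp away, of eIF3h with senju 107 bp away, and of eIF3a with CG1074 18 bp away. At eIF3a the summit was nearer the start of CG1074 than that of eIF3a itself, 52 bp away. Signal at such a summit cannot be assigned to either gene. The other 8 summits had no start of another gene within 500 bp.

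**Figure D5:**
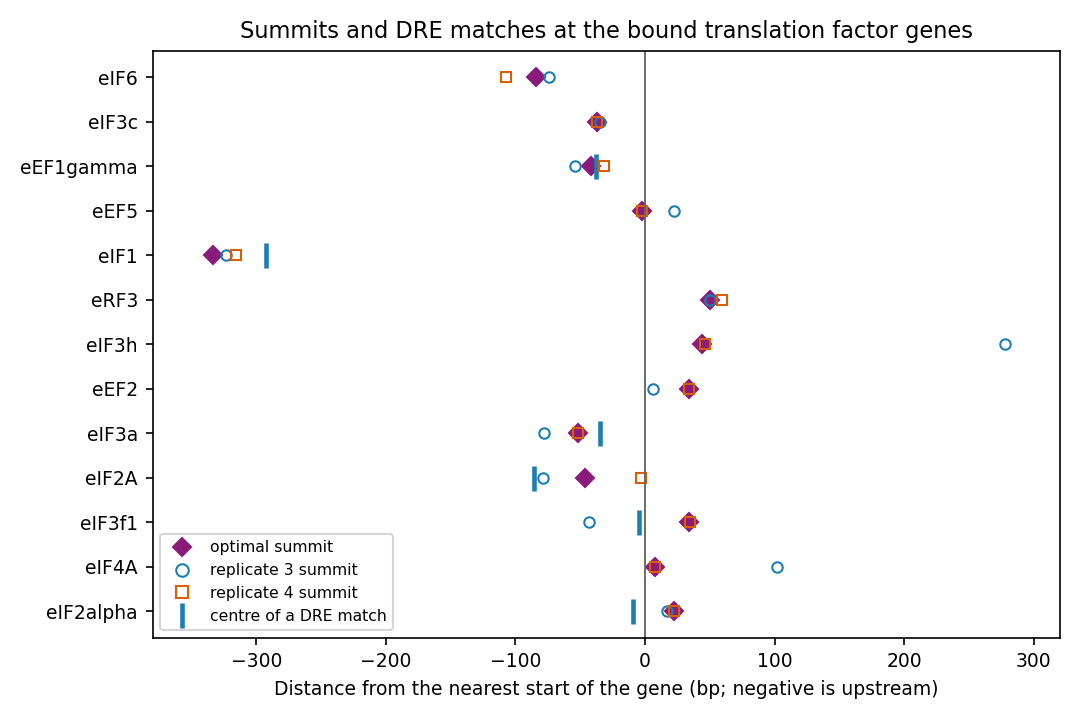
Position of the optimal summit (diamond), the replicate 3 and replicate 4 summits (open symbols) and the centre of a DRE match (bar) at the 13 bound genes, in bp from the nearest start of the gene, negative upstream. All but eIF1 have the optimal summit within 100 bp of the start.

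Related genes were counted by the same rule. Of 25 regulators of translation, 24 were matched by symbol and 5 were bound (20.8%, interval 9.24% to 40.5%, against 11.4% of protein-coding genes). They were Thor, the 4E-binding protein that restrains eIF4E, with a pooled signal of 96.8 at rank 928, Pdcd4, an inhibitor of eIF4A in mammals, with 87.6, the helicase gene bel with 87.2, the kinase gene S6k with 69.6 and the eIF4G relative NAT1 with 68.8. Thor alone was within the first 1985 peaks in both replicates, 1 of 24 (4.17%) against 8.06% of protein-coding genes. The rule leaves out peaks inside a gene more than 500 bp from its starts. Such optimal peaks lay in Lk6 (signal 754) and pAbp (224), which were not called bound, and in bel (84.0). Of 8 mitochondrial translation factors, 7 were matched and none was bound (interval 0% to 35.4%), while 4 had a pooled summit (57.1%, against 51.6% of protein-coding genes). mIF3, at 52.4 and rank 3259, and mIF2, at 48.6 and rank 3850, were the highest of these.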

How the data were processed

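Values came from the deposited dm6 peak lists of 2 ChIP-seq replicates. Per the deposited file listing, the authors made a relaxed list of peaks and background for each replicate and for both pooled, and an optimal list thresholded by the irreproducible discovery rate. The aligner, peak caller and cutoff were not given in the sources used here. The deposited signal of a peak, on a scale set by the authors, was used to describe and rank peaks within a list. No read counts entered, and the depth of each library is unknown. The dm3 copies were not used here.

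Summits were matched to all transcript starts of Ensembl release 115 (BDGP6.54) within 500 bp, with Python 3.11.15. Shares have Wilson 95% intervals (SciPy 1.17.1). With 1 group there was no contrast, and no test was run: counts are set beside all protein-coding genes. Matching was tested on simulated data. The members and gene lists were chosen with earlier results of these data known. Values in every list are given for bound members, for the 5 highest pooled signals outside the optimal list, and for members within the first 1985 peaks of exactly 1 replicate. The rest are given by role. Tor and mEFG2 had no unique match and are not reported here. Windows, list length, replicates and start definitions were varied.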

Additional observations from a re-analysis of the deposited data

How the results depend on the processing

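The count of bound members stayed within 1.5 times 13 with windows of 250 bp (12) and 1000 bp (15), with overlap of the peak interval (14), with the 5′ end of the gene model (12) and with the strongest 992 peaks (9). It ran from 13 to 14 with replicate 4 or replicate 3 left out. With the strongest 5000 pooled peaks 24 members were bound (44.4%), beside 3159 protein-coding genes (22.7%), and with 992 peaks 870 protein-coding genes (6.24%). Within the strongest 5000 of both replicates there were 18 members (33.3%), against 15.6% of protein-coding genes. Bound regulators of translation numbered 1 with 992 and 9 with 5000 peaks, and mitochondrial factors 2 with 5000. The number of peaks taken sets these counts by construction. Of the 22 members given in every list, eIF1 moved to 20.5 with 250 bp, eEF1alpha1 to 67.5 with 1000 bp or interval overlap, and eEF1alpha1 and eIF4A to 26.3 with the 5′ end. No paired analysis was possible because there is only 1 group. Unknown depth limits every comparison of signal between lists.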
